A study of Zea mays with 318 samples.

Results

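The genes described here were those whose expression followed that of RbcS (GRMZM2G098520), a gene for the small subunit of Rubisco, across maize kernels collected 5 days after pollination (DAP). They were chosen by 1 rule: among the 20482 genes with a population median above 1 FPKM (fragments per kilobase of transcript, scaled to library size), the 100 with the highest Spearman correlation with RbcS over all 318 inbred lines were taken, of 39625 genes in the tables. The rule left out RbcS itself, a second rbcS gene (GRMZM2G113033) and 8 further genes, and the 9 genes left out besides RbcS are treated separately. The correlation with RbcS is therefore what defined the members and is given as a description, without a test.

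Poly(A) RNA was sequenced from kernels of 318 inbred lines with tropical, subtropical or temperate origin, all from self-pollinated ears and all at 5 DAP as the labels give it, and 36 of these lines are not in the study's mapping statistics. RNA came from mixed seeds of 3 field blocks, so each line was 1 library with no replicate, and every spread below is a spread between inbred lines. The labels give no groups besides the line names, of which 98 start with CIMBL, 40 with CML and 46 with GEMS, and the remaining lines carry none of these prefixes. Total counts of 6100624 to 29629212 were found per line, with a median of 13625468, and the median total of each name series lay between 13423204 and 14169020.

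Rubisco fixes carbon dioxide in the Calvin-Benson cycle, and its small subunit is encoded in the nucleus. The light reactions that feed this cycle depend on further nuclear genes, among them those for the light-harvesting proteins, the small subunits of the photosystems, the Rieske protein of the cytochrome b6f complex, ferredoxin and ferredoxin-NADP reductase. In maize leaves, a C4 cycle with phosphoenolpyruvate carboxylase, NADP-malate dehydrogenase, NADP-malic enzyme and pyruvate phosphate dikinase concentrates carbon dioxide around Rubisco, whereas the young kernel consists mainly of maternal tissue around the embryo sac and is no leaf.

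RbcS was expressed at a low level in every line, with a lowest value of 0.0614 FPKM, a median of 1.81 FPKM and a highest value of 10.3 FPKM. The highest levels were found in JY01 (10.3 FPKM, 376 reads), ZAC546 (9.69 FPKM) and CHANG3 (8.47 FPKM, 251 reads), and the lowest in CIMBL129 (0.0614 FPKM, 2 reads) and CIMBL75 (0.0937 FPKM, 3 reads). At its median count of 61.5 reads per line, counting error alone gives a coefficient of variation of 12.8%, and the observed coefficient of variation between lines was 79.5%. The difference between the upper and the lower lines was thus much larger than counting error, while the order of lines with only a few reads is uncertain.

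The 100 members had Spearman correlations with RbcS between 0.392 and 0.642, with a median of 0.438, and 22 of them were above 0.5. Over all genes tested, the correlation with RbcS had a median of 0.00663, and its 5th and 95th percentiles were -0.261 and 0.247. The last genes taken were GRMZM6G961377 (0.394), ids1 (GRMZM5G862109, 0.394) and GRMZM2G176748 (0.392), and the next genes not taken were GRMZM2G026807 (0.391), GRMZM2G025855 (0.390) and GRMZM2G069649 (0.390), so that the boundary fell inside a continuous series of values. Of the members, 88 were found in the reference gene table and 42 of them carried a name or synonym there, many of these only marker or clone names. The others are given by their identifiers.

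Members were genes of low expression. Their population medians ranged from 1.03 to 160.1 FPKM with a median of 3.37 FPKM, against 9.53 FPKM for the median over all genes tested. A median under 10 FPKM was found in 86 of the 100 members, against 51.7% of all genes tested, and the median count of a member ranged from 9.5 to 1626 reads per line, with fewer than 20 reads in 8 members. Reads were detected in every line for 82 of the members. Members also varied more between lines, with a median SD of 0.66 on the log2(FPKM + 1) scale against 0.52 over all genes tested.

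The leading member was GRMZM2G013342, with a correlation of 0.642 and levels between 0.125 and 14.5 FPKM (median 3.46). It was followed by GRMZM2G016677 (0.626, median 1.83 FPKM) and GRMZM2G047720 (0.616, median 3.02 FPKM), which the reference table gives no functional name, and then by psan1 and lhcb5, which are described with their complexes below. The other members among the 10 with the highest correlation were GRMZM2G081462, GRMZM2G174984, GRMZM2G010884, GRMZM2G071450 and GRMZM2G016066, with correlations between 0.555 and 0.594. Of these, GRMZM2G071450 had the highest median, 8.06 FPKM, and GRMZM2G010884 the lowest, 1.05 FPKM.

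Among the light-harvesting genes, which encode the chlorophyll-binding antenna, 3 of 8 listed genes were members and the 5 others had medians of 1 FPKM or less. Of these members, lhcb5 (GRMZM2G149428), for a minor antenna protein of photosystem II, ranged from 0.126 to 25.3 FPKM with a median of 3.33 FPKM and a correlation of 0.599. The gene cp29 (GRMZM2G033885), for another minor antenna protein, had a median of 1.06 FPKM (range 0 to 10.3, no reads in 8 lines, correlation 0.543). The third, lhcb7 (GRMZM2G402936), had a median of 2.35 FPKM and a highest value of 34.7 FPKM (correlation 0.456). The range of lhcb7 made it one of the 5 members with the largest spread between lines, with an SD of 1.07 on the log2(FPKM + 1) scale.

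The photosystem I list held 3 subunit genes matched by name, of which psad1 (GRMZM2G024150, median 0.127 FPKM) was under the expression minimum and the other two were members. They were psan1 (GRMZM2G080107), for subunit N, with a median of 1.40 FPKM, a range from 0 to 10.8 FPKM and a correlation of 0.607, and psah1 (GRMZM2G451224), for subunit H, with a median of 1.45 FPKM, a range from 0 to 16.2 FPKM and a correlation of 0.497. The photosystem I assembly factors PSA3 (GRMZM2G051403, median 2.39 FPKM) and PSA2 (GRMZM2G021687, median 1.76 FPKM) had correlations of 0.330 and 0.193 and were not members. No photosystem II gene of the list could become a member, since psbs1 (GRMZM2G077333) had a median of 0.407 FPKM and PSBQ1 (GRMZM2G021617) a median of 0.

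In the electron transport list, 5 of 11 genes were members. The most highly expressed of them was ris2 (GRMZM2G162748), for the Rieske iron-sulfur protein, with a median of 7.97 FPKM, a range from 0.865 to 38.2 FPKM and a correlation of 0.534. FDX1 (GRMZM2G122337), for the leaf ferredoxin I, ranged from 0 to 17.2 FPKM with a median of 1.26 FPKM (correlation 0.537), and fdx2 (GRMZM2G048313), for another leaf ferredoxin, from 0 to 6.05 FPKM with a median of 1.07 FPKM (correlation 0.448). The leaf ferredoxin-NADP reductase genes L-FNRII (GRMZM2G059083, median 2.86 FPKM) and L-FNRI (GRMZM2G168143, median 2.97 FPKM) had correlations of 0.467 and 0.465. In the reference table FDX1 and fdx2 lie 3 genes apart on chromosome 6, and because only unique alignments were counted, reads of near-identical parts of such copies can be missing from both.

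The ferredoxin family was divided by level as well as by correlation. Against the low medians of FDX1 and fdx2, fdx3 (GRMZM2G053458), for the ferredoxin of roots and other tissues without photosynthesis, had a median of 232.3 FPKM (range 64.05 to 1248) and a correlation of -0.304 with RbcS, and FDX6 (GRMZM2G106190) had a median of 77.1 FPKM and a correlation of -0.0102. The pairwise Spearman correlation was 0.516 between FDX1 and fdx2, -0.314 between FDX1 and fdx3, and -0.207 between fdx2 and fdx3. For ferredoxin-NADP reductase, fnr1 (GRMZM2G058760) had a median of 20.1 FPKM and a correlation of -0.110, and a second identifier that the reference table gives to L-FNRI, GRMZM2G151993, had a median of 1.36 FPKM and a correlation of 0.229. The listed gene FNR (GRMZM2G026930) had a median of 6.41 FPKM and a correlation of 0.0882.

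Protochlorophyllide reductase, the light-dependent enzyme of chlorophyll synthesis, was represented by pcr1 (GRMZM2G084958), with a median of 4.33 FPKM (range 0 to 27.6, correlation 0.498), and por (GRMZM2G073351), with a median of 1.31 FPKM (range 0.0971 to 9.42, correlation 0.420). The gene oy1 (GRMZM2G419806), for a subunit of magnesium chelatase, had a median of 6.20 FPKM and a correlation of 0.259 and was no member. Among regulators, sig6 (GRMZM2G144196), for a sigma factor of the plastid RNA polymerase, was a member with a median of 1.83 FPKM (range 0.208 to 16.2, correlation 0.523), as was GLK13 (GRMZM2G087804), of the GLK transcription factor family, with a median of 2.22 FPKM (range 0.292 to 10.8, correlation 0.445). They were 2 of 9 sigma factor and GLK genes above the expression minimum, whose median correlation was 0.0607. The sigma factor genes sig2A (GRMZM2G143392) and sig3 (GRMZM5G830932) had correlations of 0.232 and 0.0607.

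The 8 photosynthesis lists held 35 genes matched by name, of which 22 had a population median above 1 FPKM and 12 were members. The lists hold only genes that the reference table names, and 42 of the 100 members carry a name there, so 12 is the number matched and further photosynthesis genes may be among the members without a name. The median correlation of the 22 genes with RbcS was 0.434, against 0.00663 over all genes tested. The 12 members among them were chosen for this correlation, so the median is in part set by the rule. The 10 genes above the minimum that were no members ranged from -0.304 for fdx3 to 0.338 for gpb1 (GRMZM5G845611), for a chloroplast glyceraldehyde-3-phosphate dehydrogenase subunit. Among them was atpc1 (GRMZM5G862663), for the gamma subunit of the chloroplast ATP synthase, with 0.267. Of the 13 genes at or under the minimum, 10 had a median above 0, and 5 of these 10 had a correlation above that of the lowest member: fdx5 (GRMZM2G122327) with 0.585, rca1 (GRMZM2G162200), for Rubisco activase, with 0.571, lhcb6 (GRMZM2G092427) with 0.542, lhcb3 (GRMZM2G155216) with 0.475 and gpa1 (GRMZM2G337113), for the partner subunit of gpb1, with 0.459. Their median counts lay between 3.5 and 25.5 reads per line, and these genes were kept out of the members by their level alone. The other 5 had lower correlations: psad1 0.3836, psbs1 0.2945, cab-m1 (GRMZM2G351977) 0.1885, GOX (GRMZM2G129246) 0.1538 and lhcb4 (GRMZM2G103101) 0.1238.

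**Figure D1:**
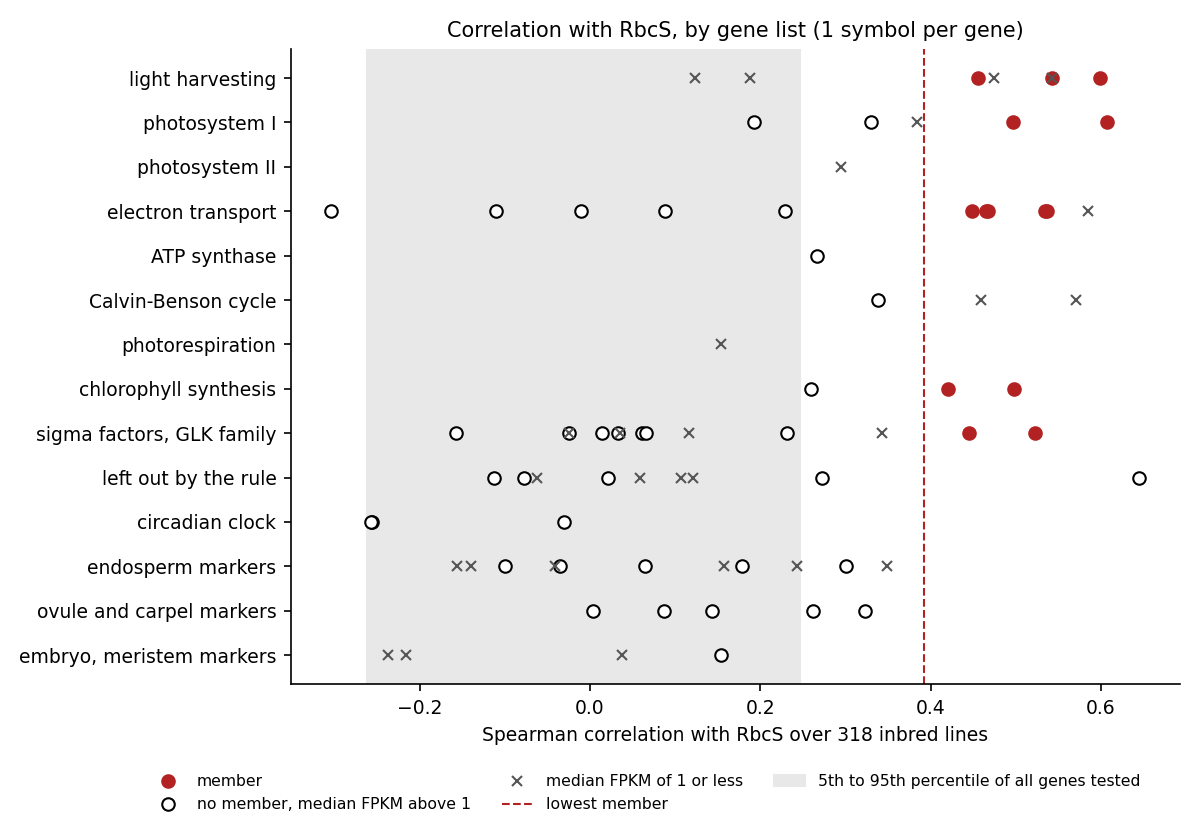
Spearman correlation with RbcS over 318 inbred lines (horizontal axis) for each gene of the lists (rows). Filled circles are members, open circles are genes with a median above 1 FPKM that were no members, crosses are genes with a median of 1 FPKM or less, and genes with a median of 0 are not drawn. The dashed line is the lowest member (0.392) and the grey band spans the 5th to 95th percentile of all genes tested (-0.261 to 0.247), and the light-harvesting genes drawn as circles all lie to the right of the line.

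The other members matched none of these lists by name. The members with the highest population median were GRMZM2G047422, with a median of 160.1 FPKM (range 2.46 to 570.2), GRMZM2G138268 with 46.01 FPKM, GRMZM2G125516 with 44.2 FPKM, GRMZM2G082998 with 35.96 FPKM and GRMZM2G147051 with 34.6 FPKM. They were followed by CBL2-1 (GRMZM2G007555), of the calcineurin B-like calcium sensors, with 26.8 FPKM, SC30 (GRMZM2G016296) with 22.7 FPKM, GRMZM2G111521 with 17.5 FPKM, AC207722.2_FG009 with 14.5 FPKM and GRMZM2G012958 with 14.3 FPKM. Of these 10 genes, AC207722.2_FG009 had the highest correlation with RbcS (0.522). Outside the rule for named genes, and named after their values had been seen, PYL10 (GRMZM2G063882), of the abscisic acid receptor family, had a correlation of 0.458, the SBP-box gene sbp6 (GRMZM2G307588) of 0.430 and the homeobox gene lg4b (GRMZM5G832409) of 0.402.

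The members differed from each other in how far they varied. The largest spread between lines was found in AC207722.2_FG009, with an SD of 1.23 on the log2(FPKM + 1) scale and levels from 0.340 to 157.1 FPKM, and in GRMZM2G047422 (SD 1.18), and GRMZM2G175562, GRMZM2G412601 and lhcb7 followed with SDs of 1.07 each. The smallest spread was found in GRMZM2G012958 (SD 0.28, levels from 8.44 to 24.9 FPKM) and GRMZM2G082998 (SD 0.29, levels from 20.8 to 74.5 FPKM). GRMZM2G420436, GRMZM2G044697 and GRMZM5G878823 had SDs between 0.31 and 0.36. The coefficient of variation of FPKM between lines ranged from 20.96% in GRMZM2G082998 to 123.4% in lhcb7 and had a median of 63.7% over the members, against a coefficient of 79.5% for RbcS.

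The rule used the correlation with RbcS only, but members were also correlated with each other. Over the 4950 pairs of members, the Spearman correlation had a median of 0.346, was above 0.5 in 13.9% of pairs and below 0 in 6 pairs. Over all pairs of genes tested, the median was -0.00302 and 1.05% of pairs were above 0.5. Genes selected for their correlation with the same gene tend to be correlated with each other, so this comparison describes the members and is no independent result. The 66 pairs among the 12 photosynthesis members had a median of 0.440, and the pairs between these and the other members had a median of 0.352.

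Between genes for the same antenna, photosystem or enzyme, the correlation was 0.688 for lhcb5 and cp29, 0.580 for psan1 and psah1, 0.472 for L-FNRI and L-FNRII and 0.493 for pcr1 and por. The closest pair of all was GRMZM2G092311 and AC207722.2_FG009 (0.835), followed by GRMZM2G010884 and GRMZM2G092311 (0.815) and by GRMZM2G092311 and cp29 (0.791). The lowest average correlation with the photosynthesis members was that of GRMZM2G012958 (0.211), the member of smallest spread.

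**Figure D2:**
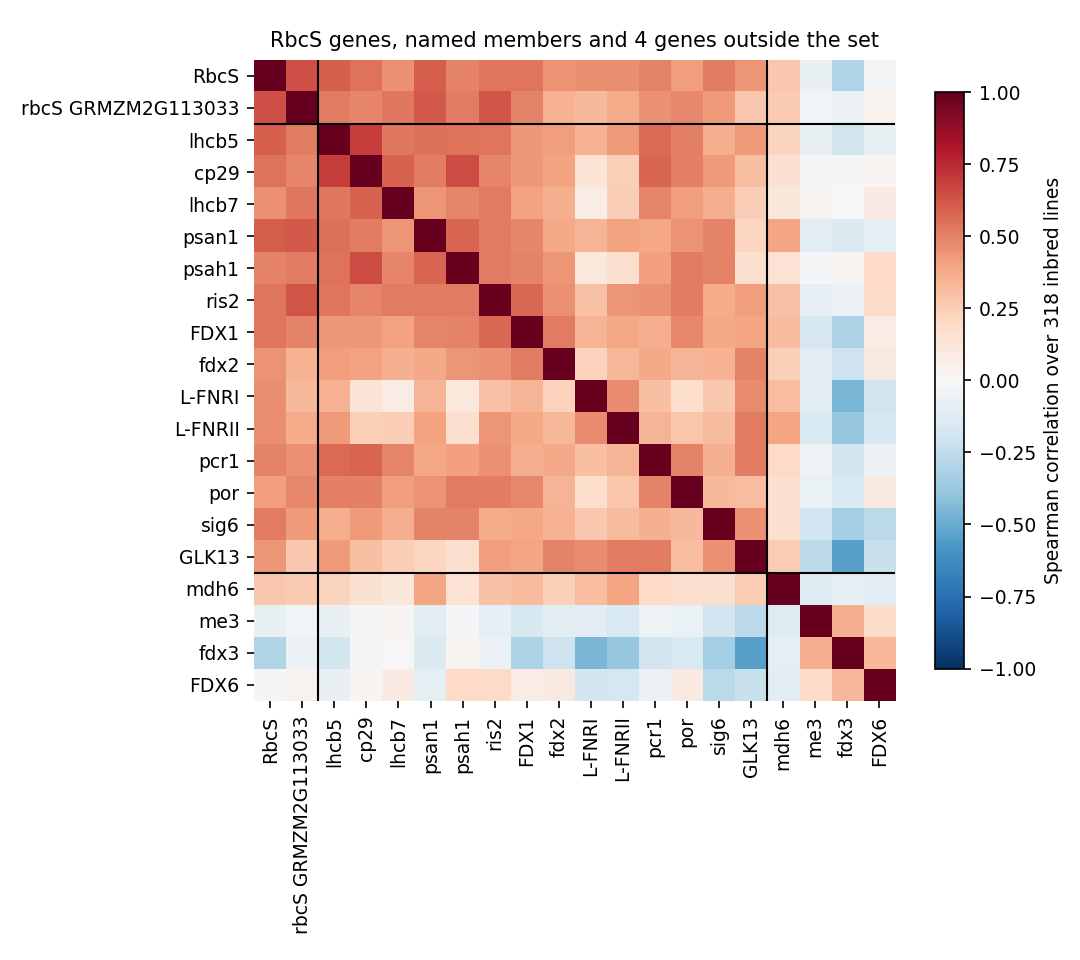
Pairwise Spearman correlation over 318 inbred lines (colour, from -1 in blue to 1 in red) between the RbcS genes, 14 named members and 4 genes outside the members (mdh6, me3, fdx3 and FDX6), separated by black lines. Pairs of members are positive but range from 0.0766 between L-FNRI and lhcb7, which is close to white, to 0.688 between lhcb5 and cp29, whereas fdx3 has blue cells with FDX1 (-0.314) and fdx2 (-0.207).

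Of 7 genes that the study lists together as targets of a single locus, 5 were members: GRMZM2G013342, lhcb5, GRMZM2G092311, AC207722.2_FG009 and GRMZM2G175562. The list was made on lines of this panel, without the 36 lines outside the mapping statistics, and was taken up here after the members were known, so it is no independent evidence. The 10 pairs among the 5 members had correlations between 0.511 and 0.835 with a median of 0.670. The 2 other listed genes were GRMZM2G160268, with a correlation of 0.516 with RbcS and a median of 0.937 FPKM, just under the expression minimum, and GRMZM2G055135, with a correlation of 0.236 and a median of 14.4 FPKM.

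The genes that the rule left out offered a comparison with measures that the ranking had not used. The second rbcS gene, GRMZM2G113033, had a higher FPKM than RbcS, with a lowest value of 1.09 FPKM, a median of 9.41 FPKM and a highest value of 37.5 FPKM. It followed RbcS across the 318 lines (Pearson's r = 0.643 on the log2(FPKM + 1) scale and Spearman's rho = 0.645). By a two-sided permutation test both had P = 1e-05, which is the smallest value possible with 100000 permutations, and a Benjamini-Hochberg adjusted P = 5e-05 over the 15 relations computed. Leaving out the 2 lines whose RbcS level was farthest from its median, r was 0.648. Within name series, r was 0.579 in the CIMBL lines, 0.698 in the CML lines, 0.724 in the GEMS lines and 0.603 in the remaining lines. The P-values treat the lines as independent, although lines of a panel can be related, and reads that align to both rbcS genes were counted for neither.

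Of the C4 genes left out, mdh6 (GRMZM2G129513), for NADP-malate dehydrogenase, was correlated with RbcS and the others did not pass the threshold on the log2(FPKM + 1) scale. For mdh6, which ranged from 4.20 to 51.03 FPKM with a median of 18.2 FPKM, r was 0.288 and rho 0.273 (two-sided permutation P = 1e-05, adjusted P = 5e-05 for both), and r was 0.277 without the 2 farthest lines. The relation passed the threshold within the CIMBL lines (r = 0.295, adjusted P = 0.0256) and the remaining lines (r = 0.287, adjusted P = 0.0075) and not within the CML lines (r = 0.282, adjusted P = 0.168) or the GEMS lines (r = 0.0451, adjusted P = 0.821). The gene me3 (GRMZM2G085019), for NADP-malic enzyme, ranged from 0.173 to 161.4 FPKM with a median of 8.30 FPKM and had r = -0.0682 and rho = -0.0771 (permutation adjusted P = 0.336 for r).

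The further genes left out were GRMZM2G348512, which carries the name cah, and GRMZM2G001696. The gene cah had a median of 18.7 FPKM, r = -0.0965 and rho = -0.112 (permutation adjusted P = 0.160 for r). GRMZM2G001696 had a median of 2.52 FPKM and r = 0.00892 (permutation adjusted P = 0.871). Below the expression minimum were Ppdk1 (GRMZM2G306345) and PPDK2 (GRMZM2G097457), for pyruvate phosphate dikinase, with medians of 0.641 and 0.431 FPKM and r of 0.0939 and -0.0443, and GRMZM2G121878, with a median of 0.134 FPKM and r = 0.0385. The leaf phosphoenolpyruvate carboxylase gene pep1 (GRMZM2G083841) had a median of 0.0187 FPKM and r = 0.125 (permutation P = 0.0264, adjusted P = 0.066, rho = 0.107). With a pseudocount of 0.1 in place of 1, pep1 passed the threshold (r = 0.135, permutation adjusted P = 0.0442, range over its alternatives 0.0442 to 0.821). Its median count was 1 read per line.

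The members showed the same order with these genes as RbcS did, and this is again a description. Their correlation with the second rbcS gene was positive in 100 of 100 members, between 0.148 and 0.647 with a median of 0.361, against 51.1% positive and a median of 0.00266 over all genes tested. With mdh6, 99 members were positive, with a median of 0.236, against 50.8% positive over all genes tested. With me3, 7 members were positive, against 48.9% of all genes tested, with a median of -0.103 and a lowest value of -0.352. GRMZM2G348512 likewise had 7, with a median of -0.139, against 54.5% of all genes tested. The number of positive members was 87 with pep1, 86 with Ppdk1, 79 with GRMZM2G121878, 22 with GRMZM2G001696 and 11 with PPDK2. Of all genes tested, 47.7% to 52.9% were positive with these, and the members' medians lay between -0.0663 and 0.0649.

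**Figure D3:**
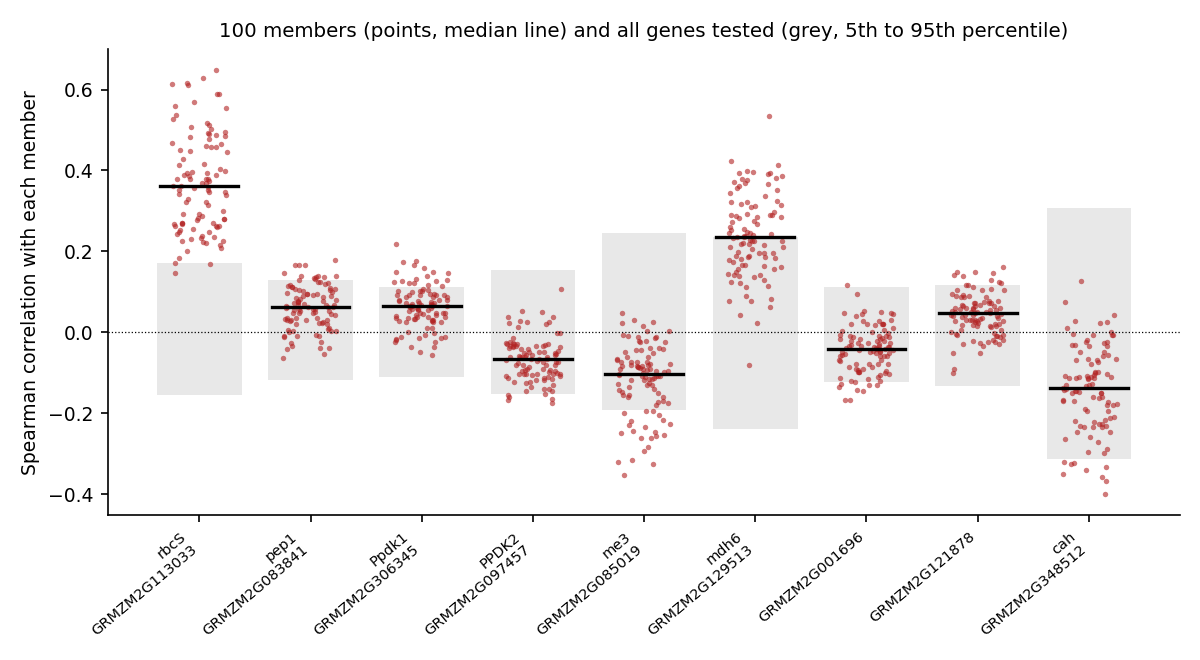
Spearman correlation over 318 inbred lines (vertical axis) of the 100 members with each of the 9 genes left out besides RbcS (columns). Points are members, black lines their medians and grey boxes the 5th to 95th percentile of all genes tested. The members' median was 0.361 for the second rbcS gene, 0.236 for mdh6 and -0.103 for me3.

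Ranked by the second rbcS gene in place of RbcS, 63 of the members were again among the 100 highest. GRMZM2G016677 had the highest correlation with it (0.647), followed among the 10 leading members by GRMZM2G174984 (0.617), psan1 (0.613) and GRMZM2G013342 (0.612). With the first 10 principal components of the expression values removed, 54 members remained among the 100 highest for RbcS, and GRMZM2G071450 had the highest value among the 10 leading members (r = 0.590). Across all the alternative rankings that could hold every member, 43 members were always kept, including all 10 leading members and cp29, FDX1, ris2, sig6, pcr1, psah1, lhcb7 and por. The members fdx2, L-FNRI, L-FNRII and GLK13 were not kept in all of these rankings, so their membership depended on the ranking.

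Members had been chosen for following RbcS over these same lines, so their levels in the lines with the highest and lowest RbcS describe the members and test nothing. In JY01, with the highest RbcS level, 95 of 100 members were above their population median, with 10.99 FPKM of lhcb5, 6.97 FPKM of psan1 and 17.3 FPKM of ris2. In CHANG3, 97 members were above, with 14.4 FPKM of lhcb5 and 18.7 FPKM of ris2. In CIMBL129, with the lowest RbcS level, 2 members were above, with 0.829 FPKM of lhcb5, 0.449 FPKM of psan1 and 1.67 FPKM of ris2.

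Not every line followed this pattern gene by gene. ZAC546 had the second highest RbcS level, and 86 members were above their median there, but the second rbcS gene (8.84 FPKM), lhcb5 (3.31 FPKM) and pcr1 (1.25 FPKM) were near or below theirs. QI319 had an RbcS level of 0.123 FPKM and 25 members above their median, among them GRMZM2G013342 (3.99 FPKM) and pcr1 (4.49 FPKM). The number of members above their median ranged from 0 in CIMBL55 to 97 in 4F1, CHANG3 and ZHENG28, with a median of 51 over all lines.

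Within name series, each member had a positive correlation with RbcS in all 4 groups of lines. The median over members was 0.466 in the CIMBL lines, 0.497 in the CML lines, 0.395 in the GEMS lines and 0.396 in the remaining lines, and the lowest single value was 0.00635, for GRMZM6G961377 in the GEMS lines. The highest was 0.765, for lhcb5 in the CML lines. Since all lines had entered the rule, these values describe the members and do not test them.

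RbcS differed between name series. Its lowest, median and highest levels were 0.0614, 1.25 and 5.44 FPKM in the 98 CIMBL lines, 0.296, 1.57 and 8.11 FPKM in the 40 CML lines, 0.265, 2.12 and 7.52 FPKM in the 46 GEMS lines, and 0.123, 2.21 and 10.3 FPKM in the remaining lines. All groups overlapped widely. RbcS was lower in the CIMBL lines than in the remaining lines (log2 fold change -0.60 ± 0.16, SE, edgeR quasi-likelihood test, Benjamini-Hochberg adjusted P = 0.00208 over all genes tested), and no difference was detected for the CML lines (-0.24 ± 0.21, adjusted P = 0.479) or the GEMS lines (-0.10 ± 0.20, adjusted P = 0.854). In bulk kernels, fewer green cells and less RNA per green cell cannot be told apart.

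The second rbcS gene and mdh6, which had not entered the ranking, were also lower in the CIMBL lines than in the remaining lines. They were 2 of 5 left-out genes tested, where 12.2% of all genes tested were called lower. Both were correlated with RbcS over these same lines, so their calls are not independent of that of RbcS. GRMZM2G113033 had a log2 fold change of -0.40 ± 0.11 (SE, edgeR adjusted P = 0.00329) and mdh6 of -0.26 ± 0.08 (edgeR adjusted P = 0.0124). In the CML lines, mdh6 was lower by a log2 fold change of -0.47 ± 0.11 (edgeR adjusted P = 0.00207), and GRMZM2G113033 did not pass the threshold (-0.12 ± 0.15, adjusted P = 0.644). Neither gene passed it in the GEMS lines, nor did me3, GRMZM2G348512 or GRMZM2G001696 in any of the 3 contrasts, each against the same remaining lines.

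Of the 100 members, 72 were called lower in the CIMBL lines than in the remaining lines and 0 higher, where 12.2% of all genes tested were called lower and 10.0% higher. At an unadjusted P under 0.05, 84 members were lower and 0 higher by edgeR, and DESeq2 called 73 lower and 0 higher. The members' median log2 fold change was -0.36, against -0.01 over all genes tested. In the CML lines, 26 members were called lower and 0 higher by edgeR, where 6.11% of all genes tested were called lower and 4.64% higher. At an unadjusted P under 0.05, 51 members were lower and 0 higher there, and DESeq2 called 37 lower and 0 higher. Because members were selected for following RbcS in these same libraries, and RbcS was itself lower in the CIMBL lines, the counts of members are given without a reading.

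In the GEMS lines, 0 members were called in either direction by edgeR and 0 by DESeq2 or limma, where 1.46% of all genes tested were called lower and 1.48% higher by edgeR. At an unadjusted P under 0.05, 7 members were lower and 1 higher by edgeR. The members' median log2 fold change was -0.06, and the smallest adjusted P was 0.122 (edgeR), for GRMZM2G380457 (-0.38 ± 0.14, SE). The member with the highest positive value was por, with a lowest, median and highest level of 0.0971, 2.00 and 7.13 FPKM in the GEMS lines, against 0.202, 1.55 and 8.15 FPKM in the remaining lines (log2 fold change 0.47 ± 0.19, edgeR adjusted P = 0.153). Whether the contrasts differed from each other was not tested.

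**Figure D4:**
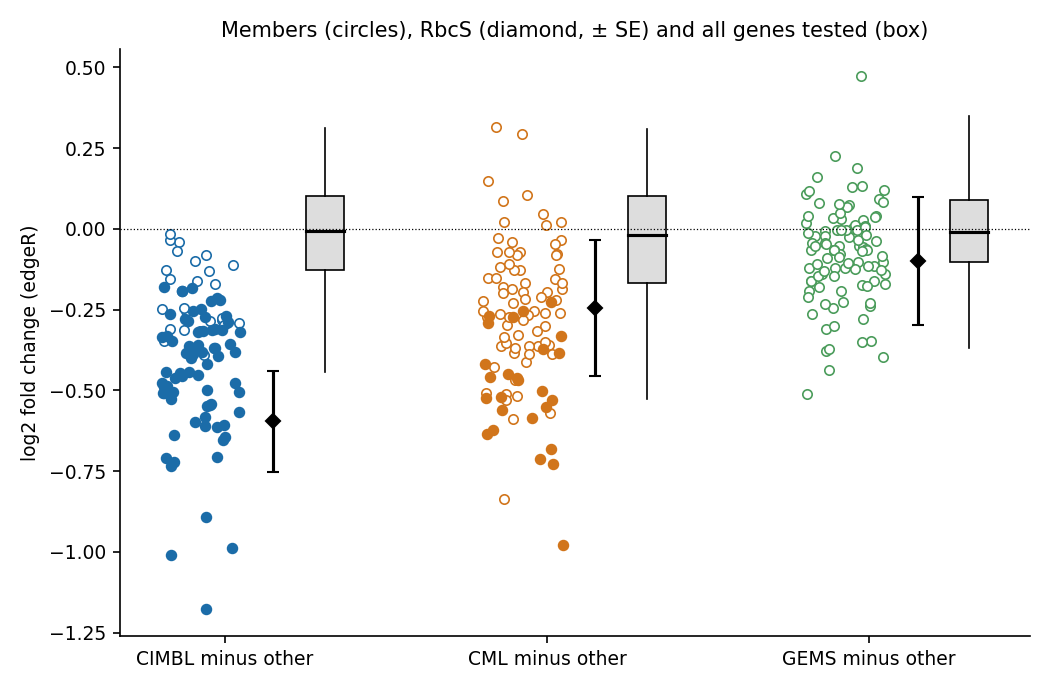
Log2 fold change from edgeR (vertical axis) of the CIMBL, CML and GEMS lines against the remaining lines. Circles are the 100 members, filled where the adjusted P was below 0.05, diamonds are RbcS with its SE, and boxes show the quartiles of all genes tested with whiskers to the 5th and 95th percentile. All members lie below 0 in the CIMBL contrast, with a median of -0.36 and RbcS at -0.60.

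The fold changes of single members carry the same limit as their counts, since members were selected for following RbcS in these same libraries. Among the photosynthesis members, FDX1 showed the lowest fold change. Its levels were 0 to 4.62 FPKM with a median of 0.765 FPKM in the CIMBL lines and 0 to 5.85 FPKM with a median of 1.03 FPKM in the CML lines, against 0.0561 to 17.2 FPKM with a median of 1.73 FPKM in the remaining lines. The log2 fold change was -1.18 ± 0.20 in the CIMBL lines (SE, edgeR adjusted P = 1.22e-06) and -0.98 ± 0.28 in the CML lines (edgeR adjusted P = 0.0113). The groups overlapped, but the median of the CIMBL lines lay below that of the remaining lines by more than a factor of 2. The other ferredoxin member, fdx2, had medians of 0.884 FPKM in the CIMBL lines and 0.757 FPKM in the CML lines, against 1.21 FPKM in the remaining lines, and was lower in both contrasts (-0.51 ± 0.14 and -0.73 ± 0.20, edgeR adjusted P = 0.00363 and 0.0073).

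The Rieske gene ris2 was lower in both series as well, with medians of 6.72 FPKM in the CIMBL lines and 7.37 FPKM in the CML lines, against 8.96 FPKM in the remaining lines (log2 fold change -0.45 ± 0.10 and -0.42 ± 0.13, edgeR adjusted P = 0.000148 and 0.0259). GLK13 had medians of 1.71 FPKM in the CIMBL lines and 1.69 FPKM in the CML lines, against 2.66 FPKM in the remaining lines (-0.65 ± 0.13 and -0.68 ± 0.19, edgeR adjusted P = 7.33e-05 and 0.00853). In the CIMBL lines alone of the 3 series, sig6, psah1, pcr1, por, cp29, lhcb7 and L-FNRI also passed the threshold, with log2 fold changes between -0.73 for por and -0.37 for L-FNRI. The members lhcb5 (-0.35 ± 0.15, edgeR adjusted P = 0.0786), psan1 (-0.25 ± 0.15, edgeR adjusted P = 0.235) and L-FNRII (-0.13 ± 0.10, edgeR adjusted P = 0.375) did not pass it in the CIMBL contrast, nor in the others.

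Over all 22 photosynthesis genes tested, 10 were lower and 0 higher in the CIMBL lines, 5 lower and 0 higher in the CML lines, and 1 lower and 0 higher in the GEMS lines, where 12.2%, 6.11% and 1.46% of all genes tested were called lower. Of the 10 genes lower in the CIMBL lines, 9 were members and so had been selected for following RbcS in these libraries. Of the 10 photosynthesis genes that were no members, 1 was lower in the CIMBL lines (oy1, log2 fold change -0.27 ± 0.08, edgeR adjusted P = 0.004), 2 in the CML lines (oy1 and PSA3) and 1 in the GEMS lines (fnr1, -0.29 ± 0.09, edgeR adjusted P = 0.0458), and 1 of 10 in the CIMBL lines is near the 12.2% of all genes tested. Of the 9 sigma factor and GLK genes tested, 4 were lower in the CIMBL lines (GLK13, sig6, GLK44 and sig2A), 2 in the CML lines (GLK13 and sig2A) and 1 in the GEMS lines (sig1, -0.98 ± 0.30, edgeR adjusted P = 0.0489), and 0 were higher in any of them, beside the same shares of all genes tested, and GLK13 and sig6 were members. Of 3 circadian clock genes tested, gigz1a (GRMZM2G107101), a gigantea gene with a correlation of -0.256 with RbcS, was higher in the CIMBL lines (0.20 ± 0.06, edgeR adjusted P = 0.00872), and 0 were lower.

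Outside these lists, the members with the smallest adjusted P in the CIMBL contrast were GRMZM6G961377 (log2 fold change -0.89 ± 0.14, edgeR adjusted P = 8.16e-08), GRMZM2G025954 (-1.01 ± 0.16, 5.09e-07), lg4b (-0.50 ± 0.08, 8.08e-07) and SC30 (-0.27 ± 0.05, 6.87e-06). In the CML contrast they were GRMZM2G166877 (-0.71 ± 0.15, edgeR adjusted P = 0.000328), lg4b (-0.52 ± 0.11, 0.000819), GRMZM2G052036 (-0.56 ± 0.14, 0.00444), GRMZM2G017419 (-0.46 ± 0.12, 0.00558) and SC30 (-0.26 ± 0.07, 0.00588). The homeobox gene lg4b, which belongs to the knotted-like class, had medians of 6.18 FPKM in the CIMBL lines and 5.57 FPKM in the CML lines, against 9.14 FPKM in the remaining lines. In the GEMS contrast, the members with the smallest adjusted P besides GRMZM2G380457 and por were GRMZM2G060156, GRMZM2G145962 and GRMZM2G052036, with adjusted P between 0.177 and 0.203 by edgeR.

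**Figure D5:**
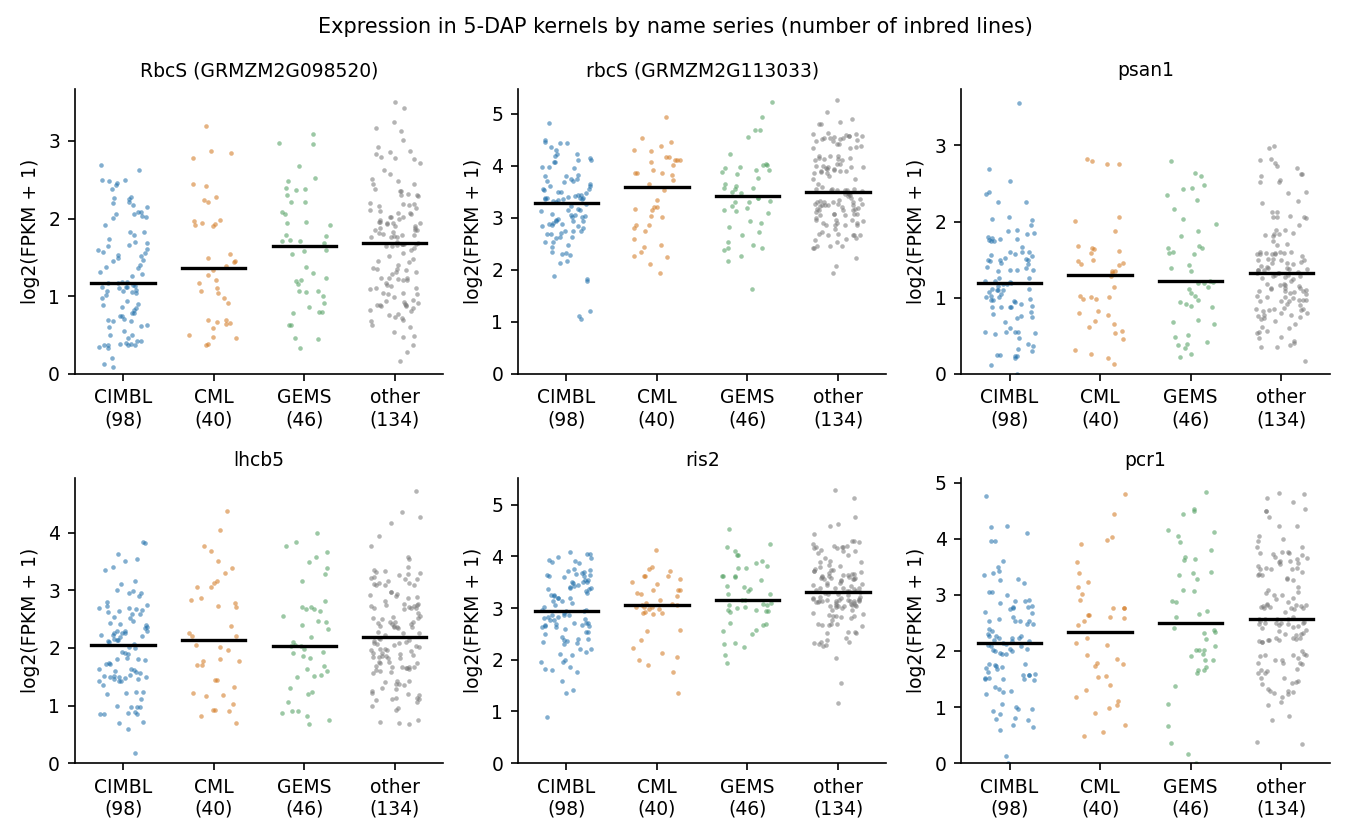
Expression as log2(FPKM + 1) (vertical axes, each starting at 0) in each inbred line, by name series with the number of lines, for RbcS, the second rbcS gene and 4 members. Points are lines and black bars medians. The RbcS median was 1.25 FPKM in the CIMBL lines and 2.21 FPKM in the remaining lines, and the groups overlap in every panel.

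Library measures and markers of other kernel tissues were set beside these results. RbcS was not correlated at this threshold with the total count (r = -0.0964, permutation adjusted P = 0.160), the share of counts taken by the 10 highest genes (r = -0.0137, permutation adjusted P = 0.866) or the agreement of a line with the average profile of the 1000 highest genes (r = -0.0360, permutation adjusted P = 0.603). The members' median correlations with these measures were 0.00856, -0.0317 and -0.00477.

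The summed FPKM of 6 ovule, carpel and maternal wall markers was positively correlated with RbcS (r = 0.256, rho = 0.248, permutation P = 1e-05 for both, adjusted P = 5e-05), and so were those of 21 endosperm markers (r = 0.187, rho = 0.208, permutation adjusted P = 0.0033) and of 6 embryo and meristem markers (r = 0.136, rho = 0.153, permutation adjusted P = 0.0446). Without the 2 farthest lines r was 0.259, 0.194 and 0.107, and the last no longer passed by r (permutation adjusted P = 0.143). By rho the embryo sum still passed without these lines (rho = 0.138, permutation adjusted P = 0.0404). Within name series, the ovule sum had r of 0.232 in the CIMBL lines, 0.365 in the CML lines, 0.0132 in the GEMS lines and 0.2501 in the remaining lines, of which only the last passed the threshold (adjusted P = 0.0192), and the endosperm sum passed it only in the remaining lines (r = 0.219, adjusted P = 0.0429, against 0.154, 0.163 and 0.156 in the CIMBL, CML and GEMS lines). The embryo sum passed it in no series (r between 0.0417 and 0.328). This sum was mostly kn1, which had a median of 10.2 FPKM, against 10.6 FPKM for the sum over all lines. The correlation with RbcS was 0.154 for kn1 and 0.0376 for wox5B, but -0.216 for wox2A and -0.2375 for vp1, the last 3 with medians near 0. The markers of the ovule and endosperm lists also differed from each other, as given below.

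The ovule sum ranged from 430.0 to 1252 FPKM (median 698.1) in the CIMBL lines, 444.5 to 1113 FPKM (median 690.8) in the CML lines and 405.6 to 1005 FPKM (median 726.6) in the GEMS lines, against 446.0 to 1232 FPKM (median 752.8) in the remaining lines. Of its markers, 5 of 6 had a median above 1 FPKM and p1 (GRMZM2G084799) a median of 0. The correlation of these 5 with RbcS was uneven: 0.323 for zag2, 0.262 for ZAG5, 0.144 for bde1, 0.0865 for ZMM2 and 0.00376 for ZAG1. ZAG1 had the highest median of them, 196.6 FPKM. The ovule marker zag2 (GRMZM2G160687) was lower in the CIMBL lines (log2 fold change -0.33 ± 0.06, edgeR adjusted P = 1.53e-06) and the CML lines (-0.39 ± 0.08, 0.000167) than in the remaining lines, and bde1 (GRMZM2G160565) was lower in the GEMS lines (-0.31 ± 0.09, 0.0395). These were the calls among 5 ovule markers tested, 1 in each contrast, and the other ovule markers passed the threshold in no contrast, among them ZAG1 (0.05 in the CIMBL lines and 0.03 in the CML lines) and ZMM2 (-0.02 in the CIMBL lines and 0.07 in the CML lines). Of the 5 endosperm markers tested and of the 1 embryo and meristem marker tested, kn1 (GRMZM2G017087), 0 were called by edgeR in any contrast. Of the endosperm markers, 5 of 21 had a median above 1 FPKM and 10 a median of 0, among them BETL1 (GRMZM2G082785), MEG1 (GRMZM2G354335) and o2 (GRMZM2G015534), and its sum had medians between 73.5 FPKM in the CIMBL lines and 76.02 FPKM in the remaining lines. The largest part of this sum was mn1, with a median of 39.2 FPKM. Of the 5 above 1 FPKM, the correlation with RbcS was 0.301 for bt2, 0.178 for mn1, 0.0642 for ebe1, -0.0351 for ebe2 and -0.0992 for pbf1. The endosperm markers with lower medians above 0 were also divided. Their correlation was 0.349 for Nkd1, 0.243 for Nkd2 and 0.158 for betl4, but -0.156 for sh2, -0.139 for fie1 and -0.0406 for esr2. The embryo list had 1 of 6 markers above 1 FPKM and 2 at a median of 0, and its sum had medians of 10.8 FPKM in the CIMBL lines, 9.66 FPKM in the CML lines and 8.49 FPKM in the GEMS lines, against 12.1 FPKM in the remaining lines. With the ovule sum 89 members were positively correlated (median 0.145), with the endosperm sum 82 (median 0.127) and with the embryo sum 96 (median 0.155), against 53.1%, 50.5% and 50.3% of all genes tested. The part of tissue composition in the results on RbcS and its members was not tested.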

How the data were processed

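Kernels of 318 maize inbred lines at 5 DAP were profiled by RNA-seq, 1 library per line. The tables deposited by the authors hold raw gene counts. By the study's methods and the submitters' processing notes, which name TopHat2, Picard, DESeq2 and B73 RefGen_v3, cleaned read pairs were mapped with TopHat2, and unique alignments were counted on annotated genes without regard to strand; tool versions, and if counts refer to single reads or to pairs, are not given in the sources used here. Overlapping and antisense genes therefore cannot be told apart, and near-identical copies can be undercounted. The deposited FPKM values derive from the same counts through DESeq2 size factors.

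The members, gene lists and tests were chosen with earlier results of these data known. Spearman correlations used FPKM. Name series were compared in 1 fit of all lines with edgeR 4.0.16 (TMM, glmQLFit, glmQLFTest, genes with a median FPKM above 1, SE taken as the fold change over the square root of F), with Benjamini-Hochberg adjustment over all 20482 genes per contrast and a threshold of 0.05. The fit was also run on simulated counts drawn independently for each line, which cannot show how relatedness between lines affects the P-values. The P-values measure only the spread between lines. Relations of RbcS used log2(FPKM + 1) and 100000 two-sided permutations over the 15 relations. Alternatives were DESeq2 1.42.0, limma 3.58.1 on log2(FPKM + 1) and log2(FPKM + 0.1), other size factors, filters, sets of lines, reference genes and scales. Total counts of 6100624 to 29629212 limit the precision of low genes by counting error.

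Genes named are RbcS and the genes left out, the 10 members highest in correlation and in median FPKM, the leading members of each list, those at the threshold, the 5 of largest and smallest spread and the 5 of smallest adjusted P per contrast. Others are said to be chosen after their values were seen, or are genes of the lists. A RefSeq gene table (assembly Zm-B73-REFERENCE-NAM-5.0, another build than that of the files) matched 18908 of 39625 identifiers and gave names and neighbours only. The gene lists were planned by gene description, and symbols and synonyms were used in their place. Promoter sequences were not analysed here. Computations used Python 3.11.15, numpy 2.4.6, scipy 1.17.1, pandas 2.3.3, matplotlib 3.10.9 and R 4.3.3.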

Additional observations from a re-analysis of the deposited data

How the results depend on the processing

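Membership depended on the ranking more than on the scale. Of the 100 members, 14 were again among the 100 highest with a median FPKM above 10, since only 14 have such a median, 54 with the first 10 principal components removed and 63 with GRMZM2G113033 as reference, where the cause was not tested. Under the 7 other rankings, 74 to 99 were kept. The number of the 15 relations of RbcS that passed the threshold was 5 over all lines, 2 within the CIMBL lines, 1 within the CML lines, 1 within the GEMS lines and 4 within the remaining lines, each with fewer lines than the whole. Members called lower numbered between 71 and 73 in the CIMBL contrast and between 26 and 37 in the CML contrast over the 7 alternatives, and 0 members were called in the GEMS contrast under each of them. Of the alternative fold changes of the named genes, 753 kept their direction and side of the threshold, 6 lost the threshold, 16 gained it and 23 changed sign. Of the alternative relations, 75 kept both, 14 lost the threshold, 1 gained it (pep1 with a pseudocount of 0.1) and 15 changed sign. Each changed sign was between values that passed no threshold, and the cause was not tested. In the GEMS contrast, psan1 (GRMZM2G080107) was at 0.0001409 with DESeq2, 5.384e-05 with DESeq2 size factors, 0.003836 without a filter and 0.04007 with the total count as covariate, and GRMZM2G016066 was at 0.00021, 5.074e-05, 0.001429 and 0.03814, and at 0.03093 without the 36 lines that the study's mapping statistics leave out. By limma with a pseudocount of 1 and of 0.1, FDX1 (GRMZM2G122337) was at 0.01007 and 0.09329, GRMZM2G125516 at 0.005741 and 0.00715, GRMZM2G412601 at 0.06885 and 0.08856 and GRMZM2G047720 at -0.1605 and -0.282 in that contrast; FDX1 was at 0.02594 with the total count as covariate and GRMZM2G047720 at -0.04397 without the 36 lines. In the CML contrast, lhcb5 (GRMZM2G149428) was at -0.02668 and -0.0702 by limma and -0.06292 without the 36 lines, and GRMZM2G010884 at -0.0687 by limma with a pseudocount of 0.1. For the relations of RbcS, r with GRMZM2G001696 was -0.01359 without the 36 lines, -0.05475 within the CIMBL lines and -0.07641 within the remaining lines. With the share of the 10 highest genes it was 0.002492 without the 36 lines, 0.002631 within the CML lines and 0.02935 within the remaining lines. With the total count it was 0.08638 within the CIMBL lines and 0.01868 within the CML lines, with the agreement with the average profile 0.02536 within the CIMBL lines and 0.05003 within the GEMS lines, and with GRMZM2G348512 0.08925 within the CML lines. Within the GEMS lines it was -0.05779 with pep1 (GRMZM2G083841), -0.1499 with GRMZM2G121878, -0.2491 with Ppdk1 (GRMZM2G306345) and 0.1308 with me3 (GRMZM2G085019). Some values that kept their sign were larger and still passed no threshold. Within the CML lines, r was 0.382 with pep1, 0.3535 with Ppdk1 and 0.3533 with GRMZM2G001696 (permutation adjusted P = 0.0733 each). Within the remaining lines, r with the total count was -0.205 (permutation adjusted P = 0.0553). DESeq2 gave no adjusted P for 30 genes. No paired analysis was possible because each line is its own library and the replicate numbers only name lines in accession order. Depth limits pep1 and other genes with a few reads per line, and relatedness between lines was not modelled.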
